A study of Mus musculus with 113 samples.

Results

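The libraries described here are the last 4 of an adherent neural differentiation course, taken at 125.5, 140.5, 144 and 216 h after mouse embryonic stem cells were placed in neural medium, and they were compared with the 3 libraries at 80.5, 92.5 and 101.5 h. The members were set by collection time: 4 of 15 adherent libraries and of 113 samples in the whole series. R1 mouse embryonic stem cells, an established wild-type line, were passaged once without feeders, plated in N2B27 on gelatin as a monolayer, and moved on day 6 (144 h) to dishes coated with PDL, laminin and fibronectin. All 7 libraries share this line and medium, and the labels name no genetic change or added agent. The labels do not say whether the 144 h cells were taken before or after the move, or whether the 144 and 216 h cells came from the same culture as the earlier ones. Expression was measured by RNA-seq and deposited as FPKM, which are fragment numbers scaled to transcript length and to the mapped total of the library. Of 13738 genes in the table, 12152 were above 1 FPKM in at least 3 of the 7 libraries and were tested. A gene could pass through the later or the earlier libraries alone, which among low genes favours a difference in that direction.

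In this kind of culture stem cells without serum turn into neuroepithelium, then into neural progenitors that divide or leave the cycle as neurons. Proneural factors of the bHLH family start neurogenesis in single progenitors and switch on Notch ligands such as Dll1, and Notch signalling in the neighbouring cells keeps these as progenitors. Young neurons then assemble their own cytoskeleton (doublecortin, neurofilaments, tau), guide axons through receptors such as Robo and Dcc, and build synapses later. Bulk RNA cannot tell more cells of a type from more RNA per cell, and this holds for every level given here.

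Each time is 1 library, so the error used below is the spread among neighbouring times, not among replicate cultures, and read depth is unknown. The 7 libraries held 66 to 109 genes at 0 and 11732 to 12312 genes above 1 FPKM. On log2(FPKM + 1), libraries at 80.5 to 140.5 h correlated with the one before at r 0.990 to 0.994, whereas 144 h correlated with 140.5 h at 0.962 and 216 h with 144 h at 0.944. The 140.5 and 216 h libraries were closer to each other, at 0.971, than either was to 144 h. From 140.5 to 144 h, an interval of 3.5 h, 65 genes (0.535%) were at least 4-fold higher and 6 (0.0494%) at least 4-fold lower. Because 144 h stands apart, counts without it are given where they differ most.

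Some neurogenic regulators, some axon guidance and cytoskeletal genes of neurons and part of the Notch pathway rose at 125.5 to 216 h. In the limma fit 102 genes rose (0.839% of those tested) and 48 fell (0.395%) at an adjusted p under 0.05, and in each of these 150 genes the 4 later libraries lay wholly on one side of the 3 earlier ones. Among all tested genes 2507 (20.6%) had all later libraries above and 1150 (9.46%) all below, and the median difference was 0.06 on the log2 scale. These shares hold for all libraries together. Without 144 h such separation is easier to meet for any gene, and its share among all tested genes was not counted. At an unadjusted p under 0.05 there were 3299 genes, both directions together. The share in each direction was not counted, so list counts at this threshold have no such share beside them. The calls rested on single libraries: limma called 0 genes without 80.5 h and 0 without 92.5 h (1488 and 2212 at an unadjusted p under 0.05), 17 higher and 5 lower without 101.5 h, 1066 and 352 without 125.5 h, 6 and 4 without 140.5 h, 66 and 31 without 144 h, and 184 and 45 without 216 h. An exact two-sided permutation test of 4 against 3 libraries cannot give a p below 0.0571 for any single gene.

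Of 31 listed proneural and neurogenic factors 24 were tested, 5 rose and none fell. Later libraries lay wholly above the earlier ones in 19 of them, 20 without 144 h, and the median difference was 1.12. Scrt2, a zinc-finger repressor made in newly born neurons, was at 0.822, 1.45 and 2.25 FPKM at 80.5, 92.5 and 101.5 h and at 14.1, 26.4, 13.9 and 52.7 FPKM at 125.5, 140.5, 144 and 216 h. Scrt2 spans chr2:151907265-151921538 (mm9, the build of the files). It rose by 3.30 ± 0.44 (SE) on the log2(FPKM + 1) scale, with an adjusted p of 0.0164. Its paralog Scrt1 went from 0.906, 1.02 and 1.20 FPKM to 6.81, 11.8, 6.65 and 21.7 FPKM (2.49 ± 0.36, adjusted p = 0.0197), and in both genes 144 h dipped to about the 125.5 h level.

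The bHLH factors Nhlh1 and Nhlh2, which act after the proneural step, rose without such a dip. Nhlh2 was at 0.425, 0.561 and 1.20 FPKM and then at 7.20, 12, 15.6 and 22.8 FPKM, a rise of 3.08 ± 0.34 with an adjusted p of 0.0111. Nhlh1 stood at 4.01, 4.21 and 6.29 FPKM and then at 14.7, 16.5, 24.1 and 25.9 FPKM (1.85 ± 0.23, adjusted p = 0.0138). St18, a zinc-finger factor of the Myt family, was the remaining factor that rose, by 1.07 ± 0.17.

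The proximal promoters of called genes are shown for a bHLH gene that rose, a neuronal target that rose and a gene that fell, since proneural factors bind E-boxes (CANNTG). Sequences cover 250 bases before to 50 after the transcription start (RefSeq, GRCm38.p6), with CAGATG on either strand and CAGCTG in capitals. Other CANNTG sites are not marked. Nhlh2 lies at chr3:102009895-102010194 on the plus strand, Dcx at chrX:143933170-143933469 on the minus strand and Gbx2 at chr1:89931127-89931426 on the minus strand.
Nhlh2: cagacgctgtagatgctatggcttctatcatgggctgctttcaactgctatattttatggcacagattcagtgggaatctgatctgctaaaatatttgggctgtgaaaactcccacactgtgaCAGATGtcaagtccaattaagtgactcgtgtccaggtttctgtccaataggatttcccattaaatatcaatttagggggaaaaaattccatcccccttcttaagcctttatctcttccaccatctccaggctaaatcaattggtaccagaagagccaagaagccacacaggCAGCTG
Dcx: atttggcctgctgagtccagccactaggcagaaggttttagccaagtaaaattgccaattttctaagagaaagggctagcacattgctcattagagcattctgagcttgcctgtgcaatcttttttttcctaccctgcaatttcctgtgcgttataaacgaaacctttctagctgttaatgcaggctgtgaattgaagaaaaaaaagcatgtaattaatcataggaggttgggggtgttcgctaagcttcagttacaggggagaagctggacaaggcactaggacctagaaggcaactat
Gbx2: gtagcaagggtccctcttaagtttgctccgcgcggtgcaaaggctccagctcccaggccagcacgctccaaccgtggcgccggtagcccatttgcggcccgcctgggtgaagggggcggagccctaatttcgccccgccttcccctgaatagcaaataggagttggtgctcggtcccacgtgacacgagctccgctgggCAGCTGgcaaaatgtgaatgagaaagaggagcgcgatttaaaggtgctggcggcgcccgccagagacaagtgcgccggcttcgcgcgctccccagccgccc
The Nhlh2 promoter holds 2 such motifs, 127 bases before and 44 bases after the start, that of Gbx2 holds 1, 51 bases before the start, and that of Dcx holds none. Of 58 genes that rose and have a RefSeq promoter here, 20.7% hold CAGATG and 17.2% CAGCTG. Of 23 that fell the shares were 39.1% and 30.4%. Of the 8620 promoters of tested genes they were 10.6% and 14.6%, and of all 27025 promoters they were 17.2% and 16.1%. Any CANNTG was held by 69.0% of those that rose, 91.3% of those that fell, 61.7% of tested genes and 72% of all.

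The neurogenins, upstream proneural genes, missed the threshold and did not share a course. Neurog1 was at 1.13, 2.70 and 5.15 FPKM, then at 16.3 and 20.4 FPKM at 125.5 and 140.5 h, and at 6.33 and 9.48 FPKM at 144 and 216 h (adjusted p = 0.0765). Neurog2 was at 0.445, 1.19 and 0.963 FPKM and then at 1.81, 2.19, 6.49 and 10.1 FPKM (adjusted p = 0.112). In both genes the later libraries lay above the earlier ones, with the Neurog1 peak at 140.5 h and that of Neurog2 at 216 h.

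**Figure D1:**
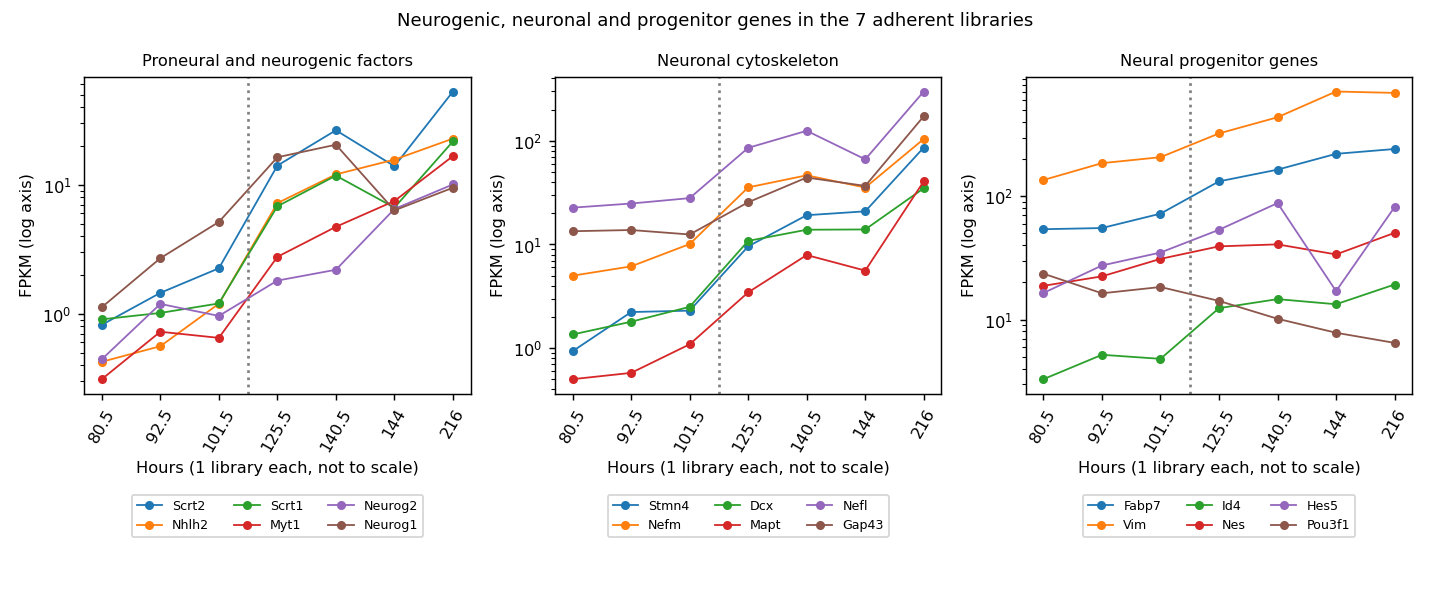
FPKM on log axes in the 7 adherent libraries for neurogenic factors, neuronal cytoskeleton genes and neural progenitor genes; each point is 1 library and the dotted line parts 101.5 from 125.5 h. Scrt2 runs from 0.822 to 52.7 FPKM and Dcx from 1.35 to 34.9 FPKM, while Hes5 falls out of its own course at 144 h with 17 FPKM.

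Of 27 listed neuronal cytoskeleton genes 26 were tested, 4 rose and none fell, with a median of 1.18. The median was 0.81 without both 144 and 216 h, when 18 were called higher, and 0.68 without both 140.5 and 216 h. Later libraries lay above earlier ones in 18 of the 26, 22 without 144 h. Dcx (doublecortin), a microtubule protein of migrating young neurons, was at 1.35, 1.80 and 2.50 FPKM and then at 10.8, 13.9, 14 and 34.9 FPKM, a rise of 2.62 ± 0.35 with an adjusted p of 0.0169. Nefm, the medium neurofilament subunit, went from 5.00, 6.15 and 10.1 FPKM to 35.6, 46.5, 35.4 and 104 FPKM (2.70 ± 0.38, adjusted p = 0.0190). Mtap2, the table's symbol for the dendrite protein Map2, went from 4.26, 3.96 and 4.33 FPKM to 13.1, 17.3, 20.2 and 37.8 FPKM (2.05 ± 0.30, adjusted p = 0.0202), and Tagln3 rose by 2.16 ± 0.28.

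Other cytoskeletal genes missed the threshold, with 216 h above the other later libraries. Stmn4, a stathmin, was at 0.935, 2.23 and 2.30 FPKM and then at 9.59, 19.2, 20.9 and 86.2 FPKM (3.20 ± 0.61, adjusted p = 0.0516). Mapt (tau) was at 0.502, 0.577 and 1.09 FPKM and then at 3.46, 7.91, 5.60 and 40.8 FPKM (2.59 ± 0.66, adjusted p = 0.0855). Tubb3, the tubulin by which neurons are commonly identified, was at 123, 141 and 156 FPKM and stood at 292, 359, 229 and 664 FPKM afterwards (1.34 ± 0.31, adjusted p = 0.0740). In the undifferentiated cells at 0 h Tubb3 had been at 149 FPKM and Stmn2 at 126 FPKM. Stmn2 overlapped between the groups, with 81.8 FPKM at 125.5 h against 103 FPKM at 92.5 h.

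Axon guidance genes had 35 of 40 members tested, of which 3 rose. Robo3, the receptor that lets commissural axons cross the midline, was at 1.32, 2.17 and 2.68 FPKM and then at 14.6, 20.2, 16.3 and 45.5 FPKM, a rise of 2.92 ± 0.36 with an adjusted p of 0.0138. Dcc, the netrin receptor, went from 0.746, 1.16 and 1.38 FPKM to 4.65, 5.67, 8.14 and 12.3 FPKM (1.98 ± 0.28, adjusted p = 0.0197). Its ligand gene Ntn1 rose by 0.86 ± 0.14, from 13.4, 13.7 and 15 FPKM to 22.2, 26.3, 24.3 and 33.7 FPKM.

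Of 29 tested synapse and vesicle genes limma called 0, later libraries lay wholly above in 14, 13 were higher at an unadjusted p under 0.05, and the median was 0.61. The median was 0.28 without both 144 and 216 h, when 7 were called higher, and 0.26 without both 140.5 and 216 h. Syt4, a synaptotagmin, was at 0.400, 0.290 and 0.363 FPKM and then at 0.969, 1.57, 1.67 and 9.70 FPKM. Of 20 tested channel and receptor genes Chrna3, a nicotinic receptor subunit, rose, from 1.67, 1.3 and 1.83 FPKM to 4.94, 4.72, 3.94 and 3.26 FPKM (1.00 ± 0.16, adjusted p = 0.0282). The neighbouring subunit genes Chrnb4 and Chrna5, which were on no list, rose by 1.00 and 0.88.

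RNA-binding proteins of neurons had 12 of 13 members tested, 1 rise and a median of 1.07, which was 0.62 without both 140.5 and 216 h. The rise was that of Elavl4, an Hu protein, from 2.26, 3.12 and 4.49 FPKM to 9.27, 9.64, 15.3 and 14.2 FPKM (1.61 ± 0.23, adjusted p = 0.0202). Elavl3 was at 5.82, 5.37 and 6.80 FPKM and then at 11.6, 14.8, 12.8 and 36.2 FPKM (adjusted p = 0.0849). Rbfox3, which encodes the mature-neuron antigen NeuN, was at 0.837, 1.06 and 0.931 FPKM and then at 1.49, 2.52, 2.11 and 6.83 FPKM, with all later libraries above the earlier ones (adjusted p = 0.136).

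Of 9 tested transmitter identity genes 1 rose, with later libraries above in 6 and a median of 1.15. Low members could pass the filter through the later libraries alone, as Slc17a6 did, which favours a high median and count. The gene called was that of the peptide Sst (somatostatin), which rose from 4.28, 6.45 and 12.9 FPKM to 22.9, 27.9, 31.3 and 37.9 FPKM (1.90 ± 0.31, adjusted p = 0.0284). Cartpt, another neuropeptide precursor that was on no list, rose from 0.817, 1.10 and 1.80 FPKM to 8.69, 25.5, 14.2 and 34.5 FPKM (3.13 ± 0.41, adjusted p = 0.0163). The glutamate transporter Slc17a6 was at 0.407, 0.408 and 0.443 FPKM and then at 0.755, 1.08, 2.28 and 7.26 FPKM, and the GABA transporter Slc32a1 at 0.739, 1.07 and 0.711 FPKM and then at 2.19, 5.56, 2.05 and 4.6 FPKM. Neither of the last pair passed the threshold, with adjusted p = 0.166 and 0.0704.

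Neuronal subtype factors, which give classes of neurons their identity, had 9 of 24 members tested and 2 rises, both of LIM homeobox genes. Lhx1 was at 0.499, 0.508 and 0.662 FPKM and then at 5.08, 7.14, 4.24 and 7.75 FPKM, a rise of 2.15 ± 0.20 with an adjusted p of 0.00623. Its earlier values were all below 1 FPKM, so Lhx1 passed the filter through the later libraries alone, as did Tlx1 below. Lhx5 went from 0.995, 1.33 and 1.99 FPKM to 5.59, 6.45, 4.59 and 5.17 FPKM (1.42 ± 0.18, adjusted p = 0.0138). Both had passed 5 FPKM by 125.5 h and were lowest at 144 h among the later libraries. Tlx1, a homeobox gene, was at 0.324, 1.36, 3.52 and 15.2 FPKM after no more than 0.0742 FPKM (adjusted p = 0.149).

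Of 18 tested midbrain and hindbrain genes 1 rose and 1 fell, with later libraries above in 9 and a median of 0.53, and of 13 tested dorsoventral genes 1 rose, with a median of 1.17 (0.85 without 144 h). Pax2 rose from 0.482, 0.730 and 1.07 FPKM to 4.57, 6.33, 2.92 and 4.05 FPKM (1.61 ± 0.22, adjusted p = 0.0178), and the dorsal progenitor gene Pax3 from 1.32, 2.28 and 3.70 FPKM to 7.13, 11.4, 14.4 and 16 FPKM (1.95 ± 0.31, adjusted p = 0.0247). Gbx2, an anterior hindbrain gene that is also made in stem cells, fell from 39.1, 29.0 and 29.7 FPKM to 16.2, 11.9, 8.93 and 7.84 FPKM (-1.49 ± 0.23, adjusted p = 0.0243). Olig3, a bHLH gene of dorsal progenitors, fell from 19.1, 12.9 and 11.3 FPKM to 5.33, 3.93, 2.94 and 1.67 FPKM (-1.83 ± 0.30, adjusted p = 0.0282).

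Of 23 listed forebrain genes 4 were tested, limma called 0, and 0 passed an unadjusted p of 0.05. Of 12 tested Hox genes limma called 0, with 1 higher and 5 lower at an unadjusted p under 0.05. The list median was -0.39, with later libraries wholly below in 5 and above in 1. It was -0.21 without 144 h and 0.01 without both 144 and 216 h. Hoxb1 was at 6.54, 6.77 and 6.19 FPKM and then at 2.65, 2.46, 0.818 and 0.216 FPKM (adjusted p = 0.0633). The one gene with all later libraries above was Hoxa2, a hindbrain gene. Hoxa2 was at 7.85, 11.4 and 13.7 FPKM and then at 15.5, 17.7, 18.9 and 21.9 FPKM (adjusted p = 0.0869).

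Progenitor genes were not lost. Of 22 tested, 4 rose and none fell, with later libraries above in 10 and below in 3 (13 and 3 without 144 h) and a median of 0.40. Fabp7, the lipid-binding protein of radial glia, was at 54.1, 55.3 and 72.3 FPKM and then at 132, 165, 221 and 242 FPKM, a rise of 1.61 ± 0.21 with an adjusted p of 0.0163. Vim (vimentin) rose by 1.56 ± 0.29, Id4, an inhibitor of bHLH factors, by 1.55 ± 0.19, and Fgfr2 by 1.04 ± 0.16. Sox2 stayed at 56.8 to 67.3 FPKM in all 7 libraries, and Sox1 was at 46.6, 61.7 and 55.1 FPKM and then at 38.8, 45.2, 30.8 and 33.2 FPKM (adjusted p = 0.0969). The progenitor markers Sox1, Sox2, Pax6, Nes, Fabp7 and Hes5 were all above 15 FPKM in every one of the 7 libraries. At 0 h Sox1, Fabp7 and Hes5 were at 1.57, 0.221 and 0.177 FPKM. Sox2, Pax6 and Nes were at 99.3, 10.8 and 13.3 FPKM there, so their levels mark the neural identity less well.

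The Notch list had 6 rises among 20 tested genes, and no gene fell. The ligand Dll1 rose from 17.4, 19.2 and 19.5 FPKM to 27.5, 32.3, 35.7 and 42.3 FPKM (0.83 ± 0.14, adjusted p = 0.0351). The glycosyltransferases Lfng and Mfng, which tune ligand binding, rose by 0.97 ± 0.18 and 0.89 ± 0.15. Among targets and regulators, Nrarp rose by 1.60 ± 0.21, Dtx4 by 1.10 ± 0.19 and Hey1 by 1.09 ± 0.15, each with an adjusted p of 0.0351 or below. Hes5, the target most used as a readout, was at 16.4, 27.5 and 35 FPKM and then at 53.5, 88.1, 17 and 81.8 FPKM, so that 144 h alone fell back among the earlier libraries (adjusted p = 0.252).

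Among astroglial genes 2 of 11 tested rose. Sox9, a factor of the gliogenic switch that progenitors also make, rose from 0.744, 1.42 and 2.59 FPKM to 7.22, 9.77, 8.60 and 17.2 FPKM (2.17 ± 0.32, adjusted p = 0.0202), and Fgfr3 from 3.04, 4.30 and 5.60 FPKM to 11.9, 17.9, 20.9 and 25.8 FPKM (1.90 ± 0.26, adjusted p = 0.0169). Of the other 9 tested astroglial genes none passed the adjusted threshold, and 3 were higher and 1 lower at an unadjusted p under 0.05. Of 4 tested oligodendrocyte lineage genes limma called 0, and 2 were higher at an unadjusted p under 0.05 with later libraries wholly above, Pdgfra and Mbp. Mbp, the myelin basic protein gene, was at 3.32, 3.80 and 3.78 FPKM and then at 5.05, 5.99, 9.94 and 8.02 FPKM (adjusted p = 0.0865). Olig2 was at 0.328 to 1.24 FPKM and was not tested because of the filter. Gfap, Aqp4, S100b, Olig1 and Sox10 have no values in the adherent data used here, so these glial markers could not be examined. The secreted ligand genes Wnt7a and Wnt7b rose together, Wnt7b from 1.27, 4.17 and 5.71 FPKM to 20.5, 36.4, 33.6 and 64.5 FPKM (3.10 ± 0.44, adjusted p = 0.0190) and Wnt7a by 1.99 ± 0.27.

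The largest rises held 3 more genes of other kinds. Gpr56, an adhesion receptor of neural progenitors, was at 2.63, 5.22 and 8.51 FPKM and then at 21.9, 37.3, 54.1 and 81.1 FPKM (2.90 ± 0.45, adjusted p = 0.0245). The tetraspanin gene Tspan18 went from 0.565, 0.952 and 1.42 FPKM to 5.01, 10.9, 15 and 23.8 FPKM (2.73 ± 0.42, adjusted p = 0.0244). The unnamed transcript 2610017I09Rik went from 2.08, 4.42 and 8.14 FPKM to 27.2, 40.6, 43.3 and 58.5 FPKM (2.97 ± 0.37, adjusted p = 0.0138). None of the 3 had a 144 h value below that at 125.5 h, unlike Scrt1, Scrt2 and Wnt7a.

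Cdkn1c (p57), a CDK inhibitor of cells leaving the cycle, rose from 22.1, 27.0 and 31.5 FPKM to 64.8, 95.6, 100 and 128 FPKM (1.79 ± 0.22, adjusted p = 0.0138), the one call among 7 tested inhibitors. Cyp26b1, which breaks down retinoic acid, rose from 2.21, 9.40 and 12.5 FPKM to 36.5, 54.7, 52.6 and 93.0 FPKM (2.89 ± 0.49, adjusted p = 0.0329), while of the other 11 tested retinoic acid pathway genes none passed the adjusted threshold, 4 were lower at an unadjusted p under 0.05, and the list median was -0.34. Among these 4 the receptor gene Rarg was at 21.9, 16.5 and 16.3 FPKM and then at 13.4, 11.4, 10 and 7.02 FPKM (adjusted p = 0.0928).

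Of 36 genes called in any list, 12 were not called without 144 h, all with the same sign and with adjusted p from 0.0516 to 0.0748. These 12 were Dll1, Lfng, Ntn1, Vim, Mtap2, St18, Pax3, Gbx2, Chrna3, Sst, Cyp26b1 and Dppa4. Called without 144 h alone were 5 genes: Nefl, Ephb1 and Ngfr were higher, and Tagln and Zic1 lower. Later libraries lay wholly above in 25 axon guidance genes without 144 h, beside 19 with it, and in 10 Notch genes beside 8. These gains were not set against all tested genes, for which separation also becomes easier when a library is left out.

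**Figure D2:**
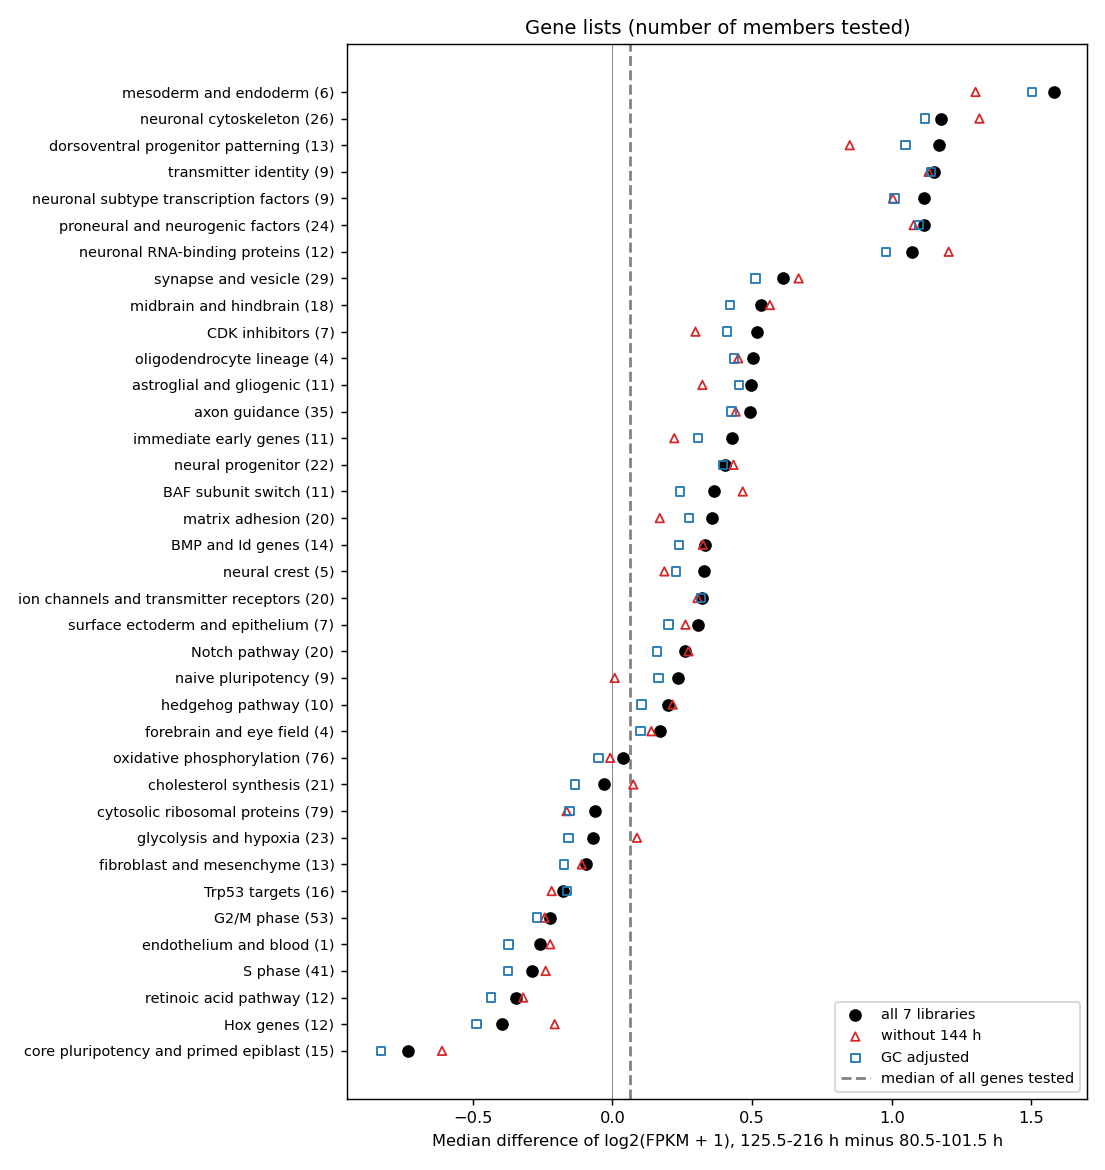
Median difference of log2(FPKM + 1) between 125.5 to 216 h and 80.5 to 101.5 h for each gene list, over all 7 libraries (black), without 144 h (red) and after adjustment for GC content (blue); the dashed line is the median of all genes tested, 0.06. Among the neuronal lists the cytoskeleton lies at 1.18, proneural factors at 1.12, synapse genes at 0.61, axon guidance at 0.49 and channels and receptors at 0.32, and the core pluripotency list lies lowest at -0.73; the mesoderm and endoderm list at the top has 6 tested members.

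Of 15 tested core and primed pluripotency genes 1 fell, none rose and later libraries lay wholly below in 6, 7 without 144 h. At an unadjusted p under 0.05, 9 of the 15 were lower. Dppa4 was at 30.3, 23.8 and 22.5 FPKM and then at 15.6, 10.3, 10.4 and 8.42 FPKM, a fall of 1.15 ± 0.20 on the log2 scale with an adjusted p of 0.0349. Gdf3, a TGF-beta family ligand of early embryos that was on no list, fell from 40.3, 30.3 and 26.3 FPKM to 14.5, 10.3, 6.85 and 5.19 FPKM (-1.77 ± 0.30, adjusted p = 0.0345). Pou5f1 (Oct4) was at 256, 154 and 182 FPKM and then at 171, 135, 62.4 and 86.4 FPKM, so the groups overlapped (adjusted p = 0.153). Nanog was at 39.2, 37.0 and 26.1 FPKM and then at 35.9, 43.7, 29.7 and 24.5 FPKM, with no order (-0.04 ± 0.21). The naive list had 9 tested members, 0 limma calls and 1 gene in each direction at an unadjusted p under 0.05.

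Several of the larger falls were of genes at low levels. Zscan4 genes, a tandem family expressed in early embryos and in rare stem cells that pass through a 2-cell-like state, were tested for 5 members, and all 5 fell, as did both Tcstv genes of the same state. These groups were put together after their values were seen. Zscan4a, Zscan4c, Zscan4d and Zscan4e were below 1 FPKM in every later library and passed the filter through the earlier ones alone. Zscan4f was at 2.95, 4.10 and 4.01 FPKM and then at 1.08, 0.417, 0.181 and 0 FPKM (adjusted p = 0.0197). Tcstv3 fell from 5.58, 8.32 and 9.50 FPKM to 1.69, 0.956, 0.755 and 0.111 FPKM (-2.27 ± 0.30, adjusted p = 0.0163). Members of these families are near-identical copies, and since the study's mapping kept 1 place per read, which copy a read came from is uncertain.

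Over the whole course these genes passed through a low and back. Zscan4f was at 9.08, 13, 9.34 and 5.04 FPKM at 0, 2.5, 8.5 and 20.5 h, at 0.150 and 0.374 FPKM at 35.5 and 41.5 h, and at 1.91 and 2.44 FPKM at 53.5 and 68.5 h. In the tenth of tested genes with the lowest GC content the median was -0.82 and -1.08 at 35.5 and 41.5 h and -0.67 at 0 h, relative to each gene's mean over the 7 libraries. Zscan4f has 42.3% transcript GC. Gm8994, with 52.6% GC, was at 13.8 FPKM at 0 h and at 1.84 and 2.95 FPKM at 35.5 and 41.5 h. The part of GC content in the course was not tested. Dcdc2c and 1700030L20Rik, whose roles are not described here, followed the same course: 1700030L20Rik was at 22.1, 21.4 and 18.9 FPKM and then at 4.56, 1.13, 1.72 and 0.782 FPKM (-2.98 ± 0.35, adjusted p = 0.0124). Of the other large falls, Gm8994, Gm428, Gm5039 and Gm12794 are predicted genes with the same low at 35.5 and 41.5 h except Gm428, which was low from 20.5 to 41.5 h. Snora69 was listed at 0 in all 4 later libraries.

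Another set of calls was about as high in the undifferentiated cells as at 125.5 to 216 h. Rmrp, the RNA of RNase MRP, was at 1.26, 2.96 and 3.15 FPKM and then at 24.8, 27.1, 31.2 and 52.7 FPKM, the largest rise of all called genes at 3.33 ± 0.30 (adjusted p = 0.00581). Rpph1, the RNA of RNase P, went from 4.48, 4.83 and 4.35 FPKM to 36.9, 23.1, 26.1 and 52.1 FPKM, and Lars2, the mitochondrial leucyl-tRNA synthetase, from 111, 120 and 83.0 FPKM to 536, 553, 411 and 715 FPKM. At 0 h Rmrp was at 24.9, Rpph1 at 26.1 and Lars2 at 778 FPKM, and at 68.5 h they were at 0.800, 0.966 and 87.9 FPKM, so the rises start from a low that these genes share at 68.5 to 101.5 h.

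Replication histone messages normally lack a poly(A) tail, as Rmrp and Rpph1 do. Of 47 histone genes 35 were tested, 9 rose and none fell, with later libraries above in 21 and a median of 0.74. Their median level was 1.12, 1.66 and 1.65 FPKM and then 3.56, 3.47, 2.29 and 3.31 FPKM, and it was 4.39 FPKM at 0 h and 8.72 FPKM at 41.5 h. Hist3h2ba did not have the low at 68.5 to 101.5 h, with 2.24 FPKM at 0 h, 7.87 FPKM at 68.5 h and 76.0 FPKM at 216 h. These histone genes, grouped after their values were seen, are 9 of the 102 rises. The S-phase genes are given below. The cause of the rises of Rmrp, Rpph1, Lars2 and the histone genes was not tested.

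**Figure D3:**
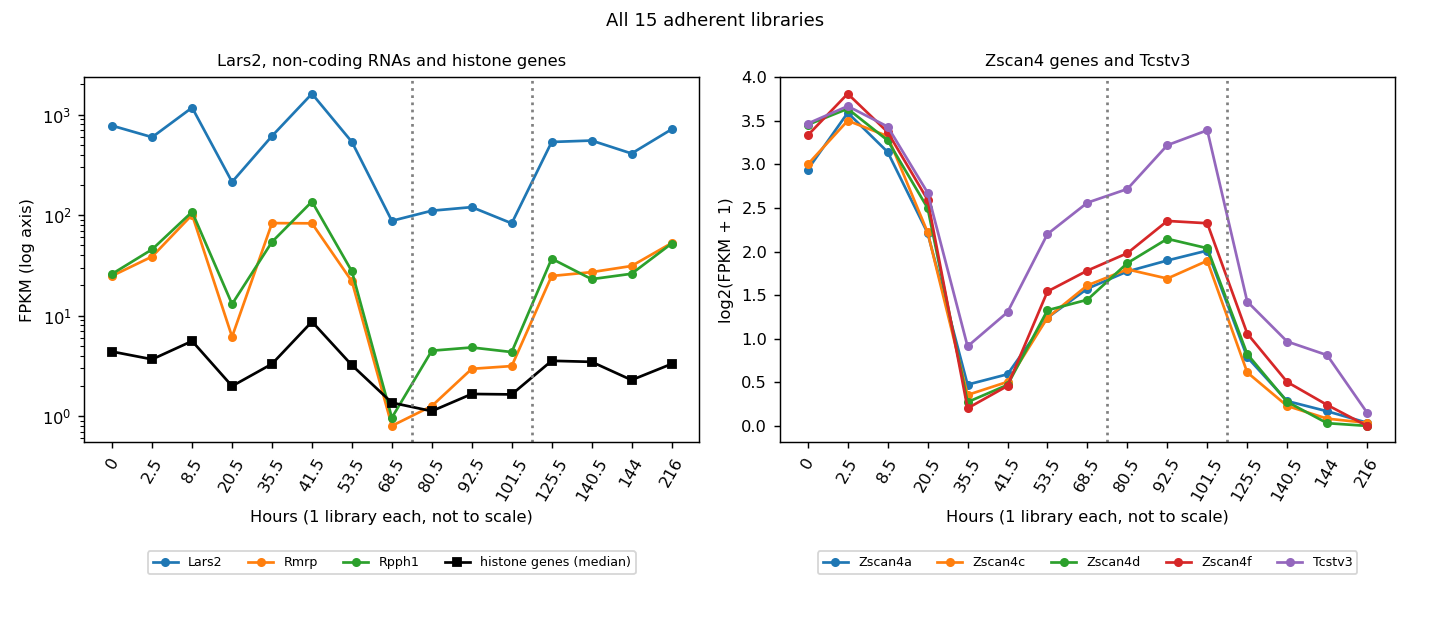
All 15 adherent libraries in order of time, with dotted lines around 80.5 to 101.5 h. Left, FPKM on a log axis for Lars2, Rmrp, Rpph1 and the median of 35 histone genes, which are low together at 68.5 to 101.5 h; right, log2(FPKM + 1) of Zscan4 genes and Tcstv3, which are low at 35.5 and 41.5 h, higher again until 101.5 h and lowest at 216 h.

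Of 41 S-phase genes limma called 0, with 12 lower at an unadjusted p under 0.05, later libraries wholly below in 16 and a median of -0.29 (-0.24 without 144 h). Mcm5, a subunit of the replicative helicase, was at 252, 223 and 254 FPKM and then at 220, 202, 143 and 132 FPKM (-0.51 ± 0.19, adjusted p = 0.138). Of 53 G2/M genes limma called 0, with 12 lower at an unadjusted p under 0.05, later libraries below in 21 and a median of -0.22. Among all tested genes 9.46% had all later libraries below. Ccnb1, the mitotic cyclin, was at 173, 174 and 171 FPKM and then at 152, 153, 146 and 111 FPKM.

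Some G2/M genes were low in 2 of the later libraries. Cenpf, a kinetochore protein with 43.3% transcript GC, was at 20.5, 22.9 and 18.8 FPKM and then at 16.2, 2.25, 17.1 and 1.27 FPKM. The kinesin gene Kif20b, with 39.4% GC, was at 14.9, 13.9 and 11.3 FPKM and then at 9.19, 2.08, 9.39 and 1.12 FPKM. Both were down at 140.5 and 216 h and back at 144 h, and Cenpf was as low at 0, 35.5 and 41.5 h (1.21, 0.887 and 0.705 FPKM). Among all tested genes, the tenth of lowest GC content (33.1 to 42.3%) had a median of -0.07 at 140.5 h, 0.21 at 144 h and -0.46 at 216 h relative to each gene's mean over the 7 libraries, against 0.06 to 0.14 in the other libraries. In the next class of GC content (42.3 to 44.8%), which holds Cenpf, the medians were -0.01, 0.14 and -0.11. Adjusting for GC content left the list medians at -0.37 for S phase and -0.27 for G2/M, and without both 140.5 and 216 h, an alternative added after seeing the data, they were -0.22 and -0.12. Without both 144 and 216 h they were -0.09 and -0.12, and 2 G2/M genes were called lower.

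**Figure D4:**
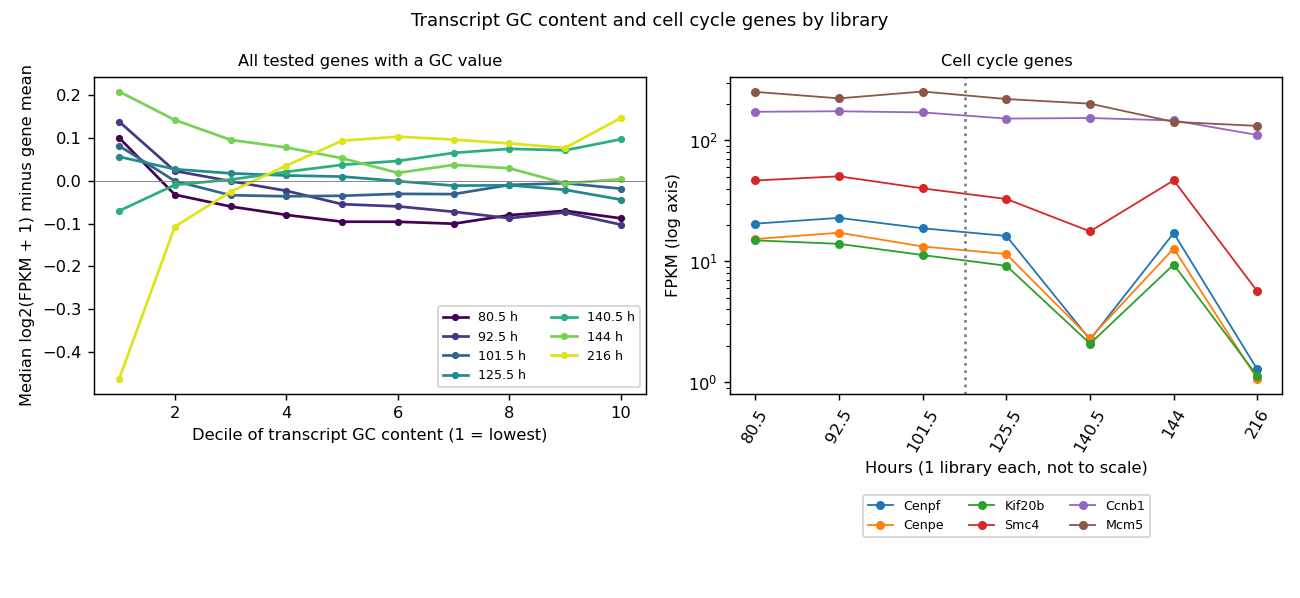
Left, median level of genes in 10 classes of transcript GC content, relative to each gene's mean over the 7 libraries, 1 line per library; right, FPKM of 6 cell cycle genes on a log axis. The 216 h line starts at -0.46 in the lowest class, and Cenpf drops to 2.25 FPKM at 140.5 h and 1.27 FPKM at 216 h with 17.1 FPKM between them, while Ccnb1 stays between 111 and 174 FPKM.

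The 65 genes at least 4-fold higher at 144 h than at 140.5 h included some contractile, immediate early and epithelial genes. The examples given were picked after their values were seen. Acta2, smooth muscle actin, was at 18.7, 15.4, 20.4, 20.9 and 22.1 FPKM up to 140.5 h, at 203 FPKM at 144 h and at 13.1 FPKM at 216 h. Tagln was at 12, 175 and 11.3 FPKM at 140.5, 144 and 216 h. The immediate early genes Egr1 and Fos, which respond to growth factors within minutes, were at 3.28, 32.8 and 4.30 FPKM and at 0.243, 11.1 and 0.834 FPKM at these times. These 4 genes were high at 144 h alone among the 7 libraries, although at 0 h Acta2 had been at 366 FPKM and Tagln at 149 FPKM.

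Another set was high at 144 h and stayed up at 216 h. The keratin gene Krt8 was at 17.1, 141 and 48.8 FPKM at 140.5, 144 and 216 h, and Krt18 at 18.8, 196 and 49.1 FPKM. T (brachyury), a gene of mesoderm and notochord, was at 0.489, 22.7 and 11.2 FPKM, Shh, the ventralising ligand of notochord and floor plate, at 0, 11.9 and 4.28 FPKM, and Foxa2, of floor plate and endoderm, at 1.11, 13.6 and 8.17 FPKM. Gli1, a target of hedgehog signalling, was at 0.732, 10.7 and 5.75 FPKM. T and Shh were below 1 FPKM in each of the other 5 libraries and were not tested because of the filter.

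Of 21 listed mesoderm and endoderm genes 6 were tested, limma called 0, and 5 were higher and 1 lower at an unadjusted p under 0.05. Members such as Sox17 were below 1 FPKM in every earlier library. They passed the filter through later libraries alone, which favours higher members in this count. Gata4 was at 1.64, 1.26 and 1.42 FPKM and then at 2.96, 4.66, 11.9 and 11.1 FPKM (1.66 ± 0.40, adjusted p = 0.0771), and Sox17 at 0.303, 0.193 and 0.200 FPKM and then at 0.967, 1.95, 10.9 and 5.42 FPKM (adjusted p = 0.101). Basement membrane genes ran beside them: Col4a1 was at 21.6, 21.2 and 17 FPKM and then at 51.7, 85.1, 247 and 274 FPKM (2.67 ± 0.54, adjusted p = 0.0551), and Lama1 at 11, 10.2 and 8.78 FPKM and then at 24, 33.0, 73.6 and 89.2 FPKM (adjusted p = 0.0516). Of 20 tested matrix adhesion genes limma called 0, with 9 higher at an unadjusted p under 0.05.

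Lists of other cell types were summed in each library. The fibroblast and mesenchyme list, which holds Acta2 and Tagln, summed to 97.3 to 117 FPKM before 125.5 h, to 82.9 to 109 FPKM at 125.5, 140.5 and 216 h, and to 439 FPKM at 144 h. The mesoderm and endoderm list summed to 15.2 to 25.8 FPKM up to 140.5 h, 104 FPKM at 144 h and 53.1 FPKM at 216 h, and the surface ectoderm list, with Krt8 and Krt18, to 94.6 to 124 FPKM, 466 FPKM and 165 FPKM. All of these sums were highest at 144 h. Acta2 and Tagln held 203 and 175 FPKM of the fibroblast and mesenchyme sum there. The median log2(FPKM + 1) of that list was lowest at 144 h, at 2.28, against 2.53 to 2.80 in the other libraries. The surface ectoderm genes Krt5, Krt14 and Trp63 have no values in the adherent data used here. Of 13 tested fibroblast and mesenchyme genes limma called 0 and 2 were lower at an unadjusted p under 0.05; Col1a1 was at 19.2, 14.5 and 18.1 FPKM and then at 14.9, 21.9, 11.7 and 16.5 FPKM, and Col3a1 at 9.29, 6.25 and 6.92 FPKM and then at 4.77, 5.95, 3.86 and 5.61 FPKM. The neural crest gene Foxd3 was at 5.23, 3.61 and 3.79 FPKM and then at 3.10, 2.26, 0.442 and 1.09 FPKM. Of the endothelium and blood list Pecam1 alone was tested, at 2.59 to 4.99 FPKM, and no microglia gene was. The part that such cells have in the neuronal differences was not tested.

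**Figure D5:**
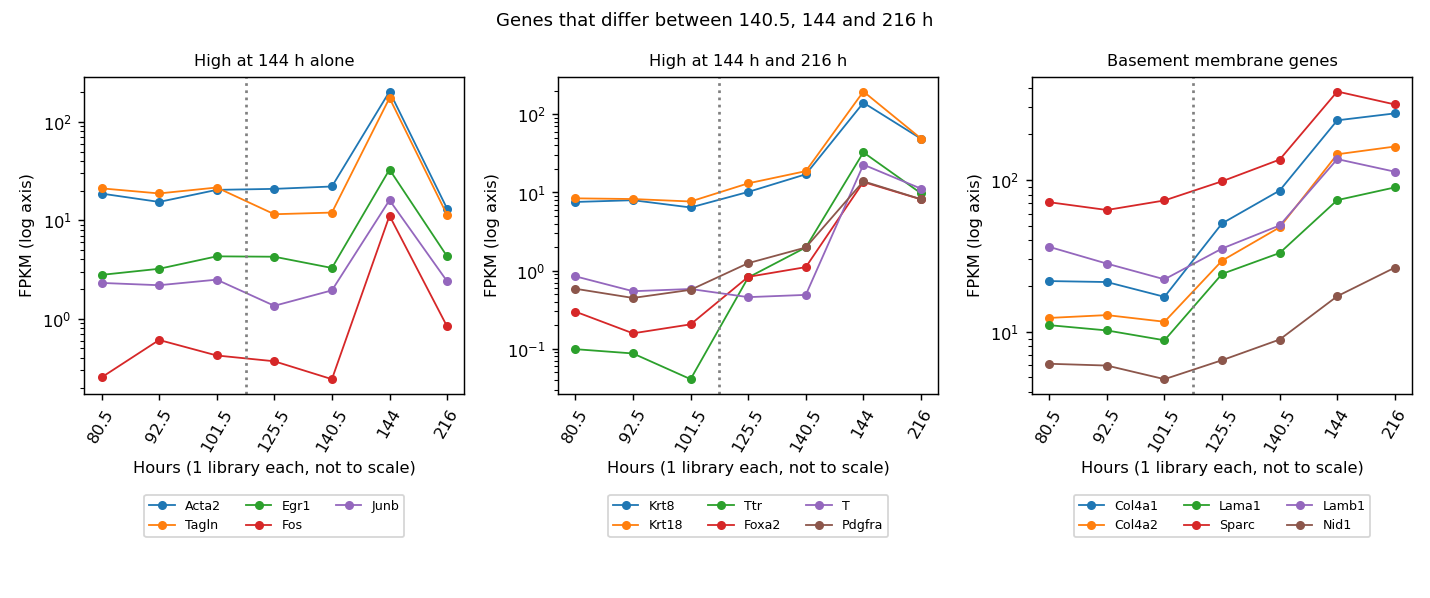
FPKM on log axes in the 7 adherent libraries for genes high at 144 h alone, genes high at 144 and 216 h, and basement membrane genes; each point is 1 library. Acta2 stands at 203 FPKM at 144 h against 13.1 to 22.1 FPKM elsewhere, T at 22.7 and 11.2 FPKM at 144 and 216 h, and Col4a1 climbs from 17 FPKM at 101.5 h to 274 FPKM at 216 h.

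After the day of replating, 216 h was set against the mean of 140.5 and 144 h, with no test because 216 h is 1 library. At least 4-fold higher were 12 genes (0.0987%) and at least 4-fold lower 9 (0.0741%). These counts depend on the pseudocount, and one of 0.1 gave 28 and 53. Among the higher genes Calb2 (calretinin, a calcium buffer of interneurons) was at 4.73, 14 and 66.2 FPKM at 140.5, 144 and 216 h, Mapt at 7.91, 5.60 and 40.8 FPKM, the growth cone gene Gap43 at 44.3, 36.7 and 173 FPKM and Nrn1 (neuritin) at 1.62, 2.77 and 12.6 FPKM. Of factors, Tlx1 was at 1.36, 3.52 and 15.2 FPKM, Lmx1b, which specifies serotonergic and dorsal horn neurons, at 1.59, 3.66 and 13.8 FPKM, and Mab21l2 at 4.53, 5.05 and 26.8 FPKM. The remaining higher genes were Stmn4, Syt4, Cdk5r1, the pseudogene Pisd-ps1 and Snora15.

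The lower genes at 216 h were Acta2, whose mean holds its 144 h peak, the small nucleolar RNAs Snora3, Snora30 and Snora41, which were listed at 0 at 216 h, and D7Ertd715e, Stag2, Smc4, Smc2 and Rif1. The chromosome proteins Stag2, Smc4, Smc2 and Rif1 have transcripts of 38.1 to 40.2% GC; Smc4 was at 17.7, 46.7 and 5.64 FPKM and Stag2 at 16.9, 32.9 and 4.18 FPKM at 140.5, 144 and 216 h. Smc4 had been at 4.48 FPKM at 0 h and 4.70 FPKM at 41.5 h, the libraries in which Cenpf was low too.

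In floating aggregates (SFEB) of the same line, also replated on day 6, 4 population samples at 126, 142, 144 and 216 h were set against 5 at 80, 84, 92, 103 and 106 h within their own table, which the authors had corrected between batches. There limma called 3257 genes higher (26.1%) and 2123 lower (17%) of 12500 tested. Without the 142 h sample the calls were 1738 and 917, and without the 84 h sample 1989 and 1161. The 2 cultures share no samples, and the difference between them was not tested because their tables were made separately.

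Of the 102 genes that rose in the adherent culture 100 were tested in SFEB, 86 were called higher there and none lower, against 26.1% called higher among all 11945 genes tested in both. Nhlh2 was at 0.896, 1.52, 1.24, 0 and 0.104 in the earlier SFEB samples at 80, 92, 103, 84 and 106 h and at 9.85, 29.7, 13.7 and 32.1 in the later ones at 126, 142, 144 and 216 h. Its difference was 3.66 there and 3.08 in the adherent culture, and that of Dcx was 3.93 and 2.62. Of the genes that were low at 68.5 to 101.5 h, Lars2 differed by -0.32 in SFEB (adjusted p = 0.520), and the 27 histone genes tested there had a median of 0.00.

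Of the 48 falls 36 were tested in SFEB, 16 were called lower and none higher, against 16.9% called lower among all genes tested in both. Olig3 fell by 2.16 and Gdf3 by 1.80 there, beside 1.83 and 1.77 in the adherent culture. Of 15 core and primed pluripotency genes 12 were called lower in SFEB, where 17% of all genes were, with a median of -1.69, beside 1 of 15 in the adherent culture, where 0.395% were, with a median of -0.73. Nanog differed by -2.09 there and -0.04 here, and Pou5f1 by -2.19 and -0.86. Krt8 differed by -1.38 in SFEB (adjusted p = 0.0874) and by 2.06 in the adherent culture (adjusted p = 0.139), and Lamb1 by -1.37 (adjusted p = 0.00350) and 1.33 (adjusted p = 0.124). Of 20 matrix adhesion genes 2 were called higher and 7 lower in SFEB.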

How the data were processed

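RNA was taken from R1 mouse embryonic stem cell cultures and made into libraries with Nextera XT, and single-end reads of 100 bp were aligned to mm9 with TopHat2 (2.0.8b) and assigned with Cufflinks (2.1.1), per the labels; the methods of the study name older releases of both. The authors kept 1 location per read and deposited FPKM per gene. The SFEB values are deposited as a score, FPKM that the authors corrected between batches with ComBat, in which 513 of the 121869 values used were below 0 and were set to 0.

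The adherent libraries were compared 4 against 3 on log2(FPKM + 1) with limma 3.58.1 (R 4.3.3; trended prior variance, Benjamini-Hochberg adjustment), for genes above 1 FPKM in at least 3 of 7 libraries; fold changes on this scale understate those of low genes. The SFEB fit of 9 samples had a term for the series. The fit was tested on simulated data. Summaries used pandas 2.3.3 and numpy 2.4.6, and plots matplotlib 3.10.9. GC content came from the mm9 transcript annotation, which gave a value for 11771 of 12152 genes.

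Named genes were the 12 largest rises and 12 largest falls among those called, the first 4 by size in each list, and the 8 largest in each direction at 216 h; other genes were named after their values were seen. The members were set by collection time, and which times to compare and the lists were chosen with earlier results of these data known. 12 listed symbols were matched by another symbol. Each time is 1 library with no replicate, so p-values measure the spread between neighbouring times, which may be technical, and the read depth of each adherent library is not given in the sources used here. Alternatives covered the pseudocount, the filter, the scaling, the prior variance, a slope over time, GC content and libraries left out. Apart from the SFEB populations, no other culture and no single cells were used here. Some genes that the naming rule covers are not reported here.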

Additional observations from a re-analysis of the deposited data

Results flagged for a closer look

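Among the 4 later libraries, 24 named genes and 36 lists were searched for a library apart by Dixon's test at the 95% level, which chance meets in about 1 of 20 groups, and 2 lists met it. The median log2(FPKM + 1) of immediate early genes was 4.34 at 144 h, against 2.37 to 2.62 in the other later libraries. The median log2(FPKM + 1) of retinoic acid pathway genes was 2.84 at 216 h, against 3.11 to 3.15 in the other later libraries.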

How the results depend on the processing

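The counts of calls moved far more than the direction of the named genes. Leaving out 1 adherent library gave 0 to 1066 rises and 0 to 352 falls, beside 102 and 48 with all 7. Leaving out both 144 and 216 h gave 513 rises and 170 falls, and leaving out both 140.5 and 216 h, added after seeing the data, 17 and 3. A pseudocount of 0.1 gave 198 rises, a minimum of 5 FPKM 64 rises and 14 falls, quantile normalization 88 rises and 79 falls, and a slope over hours 2341 rises and 1594 falls. The cause of these differences was not tested. The remaining settings stayed within 1.5 times: median-ratio scaling gave 84 rises and 49 falls, and GC adjustment, added after seeing the data, 75 and 33. At 216 h a pseudocount of 0.1 gave 28 genes at least 4-fold higher and 53 lower. In SFEB, leaving out 1 sample gave 1738 to 3320 higher and 917 to 2361 lower.

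None of the 24 genes with the largest changes reversed under the scalings, the pseudocount or the libraries left out. All 24 passed with quantile normalization or median-ratio scaling, 18 without 144 h, 6 without 101.5 h, 3 without 140.5 h and 0 without 80.5 or 92.5 h. Medians of the glycolysis, cholesterol, ribosomal, oxidative phosphorylation, fibroblast, Hox, Trp53 target and naive pluripotency lists changed sign under at least 1 setting. Without both 144 and 216 h the median was -0.30 for core pluripotency genes, beside -0.73, 0.58 for transmitter genes, beside 1.15, and 0.01 for Hox genes, beside -0.39. No paired analysis was possible because each library is its own time, and replicate numbers given in accession order pair nothing.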
